A study of Homo sapiens with 9 samples.

Results

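The PPM1 genes encode protein phosphatases that remove phosphate from serine and threonine and need magnesium or manganese for catalysis. Most work as single chains, without the separate regulatory subunits that steer many other serine/threonine phosphatases. Members differ in where they sit in the cell and in what they act on, among them stress-activated kinases, Rab GTPases, PAK and calmodulin-dependent kinases, spliceosome and transcription elongation factors, and a mitochondrial enzyme of branched-chain amino acid breakdown. The 10 genes described here, of 60683 in the count tables, were taken by symbol: PPM1A, PPM1B, PPM1E, PPM1F, PPM1G, PPM1H, PPM1J, PPM1K, PPM1L and PPM1M. The family was chosen by name together with its CPM in the 3 groups, which were already known. Its levels and differences are therefore a description, and members carry standard errors but no p-values.

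Messenger RNA was sequenced from cells labelled HCT-15, a human colorectal adenocarcinoma line with the genotype given as WT, grown in RPMI1640 with fetal bovine serum. The groups were 3 libraries of cells with no drug, 3 of cells kept in oxaliplatin, a platinum compound that binds DNA, and 3 of cells kept in sorafenib, an inhibitor of RAF and receptor tyrosine kinases. Oxaliplatin was given at 0.5 µM for 7 days, raised through 1, 2 and 4 µM between days 10 and 30, and then held at 4 µM. Sorafenib-resistant cells were made in a similar way, at doses the labels do not give. No label ties the libraries of a group to separate cultures, so errors and p-values cover library-to-library spread, which could be technical in origin.

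Library totals lay between 15797076 and 20936536 counts, and a level of 3 counts corresponded to 0.138 to 0.182 CPM, the count scaled by library size and composition. Of 12 colorectal epithelial markers, 10 had a median under 1 CPM and 7 were at 0 counts in all 9 libraries (CDX2, CDX1, CDH1, KRT20, CEACAM5, PHGR1 and HNF4A). All 7 renal epithelial markers had a median above 1 CPM, with PAX8 at 247 to 411 CPM, so the data go against the labelled tissue of origin and the groups are named below by drug alone. Of 6 fibroblast and endothelial markers, 4 had a median under 1 CPM and COL3A1, VWF and CDH5 were at 0 throughout, as were the immune markers PTPRC and CD3E. The macrophage marker CD68 was at 17.4 to 57.4 CPM and the collagen gene COL1A1 at 1.18 to 43 CPM. The summed fibroblast and endothelial markers were at 11.4 to 48.9 CPM in untreated, 16.6 to 24.7 CPM in oxaliplatin and 4.07 to 4.94 CPM in sorafenib libraries, and their part in the results below was not tested. In bulk libraries, fewer cells of a type and less RNA per cell cannot be told apart. Untreated library 1 correlated at 0.975 with sorafenib library 1 and at 0.971 and 0.972 with the other untreated libraries, across genes.

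The members are scattered over the genome. In GRCh38 coordinates, PPM1H (ENSG00000111110) spans chr12:62643994-62935150 on the minus strand and PPM1G (ENSG00000115241) spans chr2:27381195-27409591 on the minus strand. PPM1B (ENSG00000138032) spans chr2:44167969-44244384 and PPM1A (ENSG00000100614) spans chr14:60245752-60299087, both on the plus strand. PPM1M (ENSG00000164088) spans chr3:52245759-52250599 and PPM1L (ENSG00000163590) spans chr3:160755602-161078902, both on the plus strand.

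Promoter stretches are shown for the 3 members called in oxaliplatin, 2 higher and 1 lower. RefSeq windows of 250 bases before an annotated start (GRCh38.p14) were found for 9 of the 10 members, 14 windows in all, with none for PPM1J. Each line gives bases -250 to -97 before the start, 5′ to 3′ on the gene's strand, from a stretch that holds no annotated exon on that strand. Capitals mark matches, on either strand, to the motifs searched: the E-box CACGTG, the cAMP response element TGACGTCA, the GC box GGGCGG, the CCAAT box CCAAT, the ETS motif CCGGAA, the TATA box TATAAA and the NRF1 motif. The stretches are PPM1H chr12:62935247-62935400 (minus strand), PPM1G chr2:27409688-27409841 (minus strand) and PPM1B chr2:44168625-44168778 (plus strand). The PPM1B stretch lies inside the gene span given above, because the RefSeq start used, chr2:44168875, lies downstream of the first base of that span.
PPM1H: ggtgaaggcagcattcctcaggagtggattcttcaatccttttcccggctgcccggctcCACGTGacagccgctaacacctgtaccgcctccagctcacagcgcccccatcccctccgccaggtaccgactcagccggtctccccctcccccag
PPM1G: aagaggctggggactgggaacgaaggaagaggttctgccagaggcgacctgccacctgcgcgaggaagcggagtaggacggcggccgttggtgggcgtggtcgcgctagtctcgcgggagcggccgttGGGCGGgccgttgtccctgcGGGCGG
PPM1B: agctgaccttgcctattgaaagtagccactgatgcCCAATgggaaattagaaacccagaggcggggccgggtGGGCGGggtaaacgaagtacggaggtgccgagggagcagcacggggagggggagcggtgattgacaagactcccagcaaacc
Over the full 250 bases, the GC box was found in 10 of the 14 member windows, and in 42.6% of all 35093 RefSeq windows. The 2 PPM1E windows overlap and hold the same GC boxes. Member windows ranged from 34.0% to 76.0% in GC content, and the median over all windows was 58.0%. The CCAAT box was found in 2 member windows, of PPM1B and PPM1L, and in 32.0% of all windows. The TATA box was found in 2, both of PPM1L, and in 10.7%. Counted by gene, 8 of the 9 members had the GC box in at least 1 window, and PPM1H was the member without a GC box. The E-box was found in 1 member window, that of PPM1H, and in 6.34% of all windows, and the cAMP response element in 1, of PPM1A, and in 1.65%. Neither the ETS nor the NRF1 motif was found in a member's window, against 14.5% and 1.03% of all windows. These are letter matches within the windows and describe sequence only.

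Divided by exon length, so that genes can be compared, PPM1G had the highest level of the family in untreated cells, at 45.4 ± 4.39 CPM per kilobase (SD, n = 3). PPM1B followed at 11.8 ± 0.856, then PPM1F at 3.6 ± 0.24 and PPM1A at 3.49 ± 0.334 CPM per kilobase, a neighbouring pair that did not differ beyond its spread. PPM1H stood at 1.87 ± 0.178, PPM1M at 1.31 ± 0.111 and PPM1J at 1.05 ± 0.308 CPM per kilobase, and the last 2 differed by less than the SD of PPM1J. PPM1L, PPM1K and PPM1E were lowest, at 0.106, 0.0823 and 0.0734 CPM per kilobase, and their order was not resolved. In oxaliplatin PPM1H moved above PPM1F and PPM1A to the third place, at 9.19 ± 0.32 CPM per kilobase. In sorafenib it stood at 1.35 ± 0.151, below PPM1M at 2.34 ± 0.332 CPM per kilobase.

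As a share of the summed CPM per kilobase of all 10 members, PPM1H made up 2.55% to 2.96% in untreated, 12.8% to 15.3% in oxaliplatin and 2.07% to 2.81% in sorafenib libraries. PPM1G made up 63.8% to 67.2% in untreated, 43.4% to 50.4% in oxaliplatin and 52.7% to 58.4% in sorafenib libraries. The summed level was 61.2 to 69.2 CPM per kilobase in oxaliplatin and 63.9 to 73.5 in untreated libraries, and these 2 ranges overlapped. In the sorafenib libraries it was 62.4, 54.4 and 52.2 CPM per kilobase, below every untreated library.

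**Figure D1:**
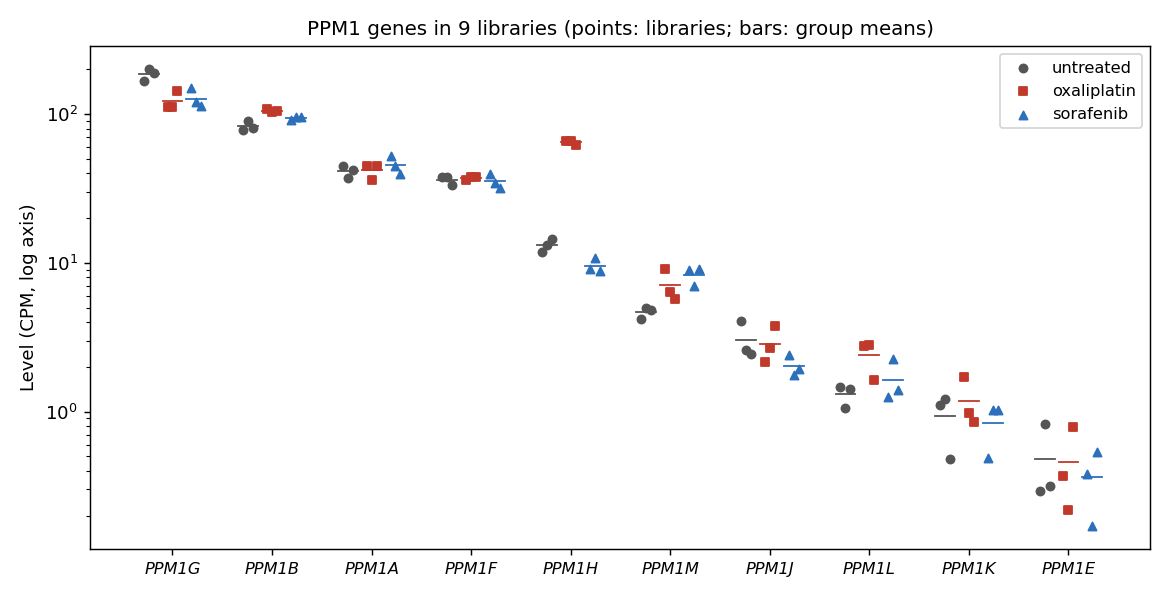
Level of each PPM1 gene in CPM, on a log axis, in the 9 libraries by group (points: libraries, horizontal bars: group means). PPM1H in the 3 oxaliplatin libraries sits at 62.3 to 66.4 CPM, above the other 6 libraries at 8.79 to 14.4 CPM, and PPM1G sits highest in the untreated libraries.

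Oxaliplatin against untreated was the comparison with the most differences. Genes were called at an adjusted p under 0.05 in edgeR's quasi-likelihood test over all 16159 genes that passed a filter on low counts, and all 10 members passed that filter. Of the members, 3 of 10 were called, PPM1B and PPM1H higher and PPM1G lower, against 31.7% of all genes tested (16.2% higher and 15.5% lower). Since the family was chosen with these levels known, nothing is read from that share. Only PPM1H also differed by 2-fold or more, as did 9.36% of all genes. The oxaliplatin and untreated libraries did not overlap for 5 members, against 48.1% of all genes. PPM1B, PPM1H, PPM1L and PPM1M stood higher, where 24.9% of all genes did, and PPM1G lower, where 23.2% did. The median log2 fold change of the 10 members was 0.18, and that of all genes tested was 0.016.

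PPM1H dephosphorylates Rab GTPases that the kinase LRRK2 has phosphorylated. Its level was 11.9, 13.2 and 14.4 CPM in untreated libraries 1 to 3 and 66.4, 66.1 and 62.3 CPM in oxaliplatin libraries 1 to 3. It was 9.13, 10.8 and 8.79 CPM in sorafenib libraries 1 to 3. The oxaliplatin libraries lay far above all 6 others, and the sorafenib libraries lay below the untreated ones without overlap. The log2 fold change was 2.3 ± 0.13 (SE) in oxaliplatin against untreated, or 4.92-fold, which ranked 136th highest of 16159 genes. Against sorafenib it was 2.76 ± 0.13, or 6.78-fold, the 52nd highest. In sorafenib against untreated it was -0.46 ± 0.13, not called, though it was called with DESeq2 (-0.47), with the GC and length correction (-0.67) and without untreated library 1 (-0.53). Both oxaliplatin differences were called under all 17 alternatives, at 1.96 to 2.42 and at 2.63 to 2.85. The summed renal epithelial markers moved with the groups too, at 404 to 547 CPM in untreated, 693 to 710 CPM in oxaliplatin and 613 to 669 CPM in sorafenib libraries, and the colorectal sum, nearly all KRT8 and KRT18, was 1130 to 1570, 709 to 857 and 847 to 1120 CPM. Their part in the PPM1H difference was not tested.

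PPM1J and PPM1M are the closest relatives of PPM1H in the family, and less is known of what they act on. PPM1M was at 4.22, 4.98 and 4.83 CPM in untreated, 9.08, 6.4 and 5.71 CPM in oxaliplatin and 9.02, 6.98 and 9.06 CPM in sorafenib libraries. Every treated library lay above every untreated one. Its log2 fold changes against untreated were 0.6 ± 0.21 in oxaliplatin and 0.84 ± 0.21 in sorafenib, neither called. Without oxaliplatin library 1 the first was 0.37, and without oxaliplatin library 3 it was 0.73 and called. The sorafenib difference was called with DESeq2, library size alone, a filter at a mean of 1 CPM and the GC and length correction. PPM1J was at 4.05, 2.6 and 2.44 CPM in untreated, 2.15, 2.66 and 3.77 CPM in oxaliplatin and 2.39, 1.76 and 1.93 CPM in sorafenib libraries. The untreated and oxaliplatin libraries overlapped (-0.09 ± 0.29), and the sorafenib libraries lay below the untreated ones (-0.58 ± 0.29), not called.

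PPM1G is a mainly nuclear phosphatase linked to pre-mRNA splicing and to the release of the elongation factor P-TEFb from its inhibitory 7SK complex. It was at 167, 202 and 189 CPM in untreated, 112, 112 and 143 CPM in oxaliplatin and 149, 120 and 113 CPM in sorafenib libraries. Both treated groups lay below the untreated one without overlap, and they overlapped each other. The log2 fold change was -0.61 ± 0.15 in oxaliplatin, called, and -0.55 ± 0.15 in sorafenib, not called. Leaving out oxaliplatin library 1 or 2 ended the oxaliplatin call (-0.54 and -0.55). The number of members called was then 1 in both cases, with 2913 and 3311 genes called of 16497 and 16548. The sorafenib difference was called with DESeq2, with the correction for GC content and length, and without untreated library 1 (-0.62), oxaliplatin library 3 (-0.55) or sorafenib library 1 (-0.68).

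PPM1A and PPM1B act on kinases of the p38, JNK and TAK1 pathways, and PPM1A also on the SMAD proteins of TGF-beta signalling. PPM1B was at 78.8, 90.3 and 81.3 CPM in untreated, 108, 103 and 105 CPM in oxaliplatin and 90.9, 95.6 and 95.3 CPM in sorafenib libraries. The 3 groups did not overlap, with untreated lowest and oxaliplatin highest. The log2 fold change was 0.33 ± 0.09 in oxaliplatin, called, and 0.17 ± 0.09 in sorafenib, not called. The oxaliplatin call held in 10 of 17 alternatives. It ended with no filter on low counts (0.32), with the GC and length correction (0.11), and without untreated library 1 (0.29), untreated library 3 (0.31), oxaliplatin library 1 (0.31) or oxaliplatin library 2 (0.35). PPM1A was at 45, 37.2 and 42 CPM in untreated, 44.9, 36.3 and 44.9 CPM in oxaliplatin and 52.2, 45.1 and 39.8 CPM in sorafenib libraries. All 3 groups overlapped, with log2 fold changes of 0.02 ± 0.14 and 0.14 ± 0.14 against untreated.

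PPM1F and PPM1E dephosphorylate calmodulin-dependent kinases and PAK kinases. PPM1F was at 37.7, 37.8 and 33.5 CPM in untreated, 36, 37.9 and 37.6 CPM in oxaliplatin and 39.6, 34.3 and 32 CPM in sorafenib libraries. Its highest library was 1.24 times its lowest, against a median of 1.82 over the 11089 genes averaging 5 CPM or more. PPM1H had a ratio of 7.55, PPM1G of 1.81, PPM1A of 1.44 and PPM1B of 1.37. PPM1E had only 3 to 15 counts a library (0.17 to 0.829 CPM), and at this depth no difference between groups was detectable (-0.1 ± 0.63 and -0.39 ± 0.64 against untreated). Its exons overlap TRIM37 on the opposite strand, at 54 to 72.1 CPM. PPM1F overlaps its antisense gene PPM1F-AS1, at 3.52 to 7.23 CPM. PPM1B shares 8.6% of its exon bases with AC019129.2 on the opposite strand. The strand setting of the counting is not given in the sources used here, so reads in these overlaps cannot be assigned with certainty. On the same strand, PPM1B shares 21.77% of its exon bases with AC013717.1 (0 to 10 counts a library) and PPM1J shares 17.12% with AL603832.3 (0 counts). Reads there are ambiguous at any strand setting, and how they were counted is not given.

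PPM1K and PPM1L sit in membranes or organelles: PPM1K in the mitochondrial matrix, where it activates the branched-chain ketoacid dehydrogenase, and PPM1L in the endoplasmic reticulum membrane. PPM1L was at 1.47, 1.05 and 1.43 CPM in untreated, 2.75, 2.82 and 1.64 CPM in oxaliplatin and 1.25, 2.27 and 1.39 CPM in sorafenib libraries. The oxaliplatin libraries lay above the untreated ones, with library 3 close to them, at a log2 fold change of 0.87 ± 0.32, not called. Without oxaliplatin library 3 it was 1.08 and called, and the members called were then 5, with 5071 genes called of 16553. PPM1K was at 1.11, 1.22 and 0.477 CPM in untreated, 1.7, 0.976 and 0.851 CPM in oxaliplatin and 0.489, 1.02 and 1.02 CPM in sorafenib libraries. These groups overlapped, and with 9 to 37 counts a library the standard errors were 0.45 and 0.46 on the log2 scale.

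**Figure D2:**
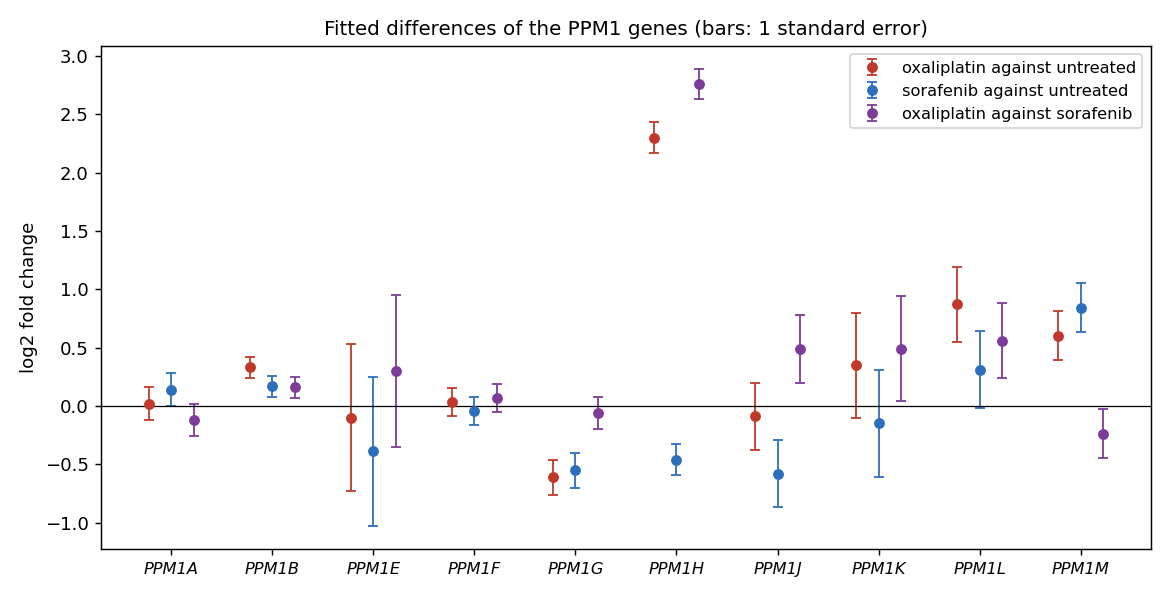
Log2 fold change of each PPM1 gene in the 3 comparisons (bars: 1 standard error, 3 libraries a group). PPM1H lies at 2.3 and 2.76 in the comparisons of oxaliplatin with untreated and with sorafenib, and the other 9 genes lie within -0.61 and 0.87.

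In sorafenib against untreated, 0 of the 10 members were called with edgeR, against 4.8% of all genes tested (2.82% higher, 1.97% lower, and 1.94% changed by 2-fold or more in either direction). Of the members, 3 had an unadjusted p under 0.05, as did 25.4% of all genes. DESeq2 called 3 members (PPM1G, PPM1H and PPM1M), and 1804 of all 16159 genes tested. The groups did not overlap for 5 members, against 29.8% of all genes: PPM1B and PPM1M stood higher, as 15.5% of genes did, and PPM1G, PPM1H and PPM1J lower, as 14.3% did. The median log2 fold change of the members was -0.09, and that of all genes was 0. Without untreated library 1 the members called were 2, with 1641 genes called of 16635 tested. Without oxaliplatin library 3 or sorafenib library 1 they were 1, with 759 and 1743 genes called of 16553 and 16593.

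In oxaliplatin against sorafenib, 1 of the 10 members, PPM1H, was called, against 10.3% of all genes tested (5.2% higher and 5.07% lower), and it also passed 2-fold, as 3.73% of genes did. The groups did not overlap for PPM1H and PPM1B, 2 of 10, both higher, against 34.9% of all genes (17.3% higher and 17.6% lower). PPM1G, PPM1A, PPM1F and PPM1M had log2 fold changes of -0.06 ± 0.14, -0.12 ± 0.14, 0.07 ± 0.12 and -0.24 ± 0.21. Both comparisons with untreated cells share the same 3 control libraries, and the labels give no sorafenib dose, so values for each drug are given side by side and no agreement between them is read.

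The fits were repeated with each library's counts corrected for the GC content and length of transcripts, an alternative added after the data had been seen. In oxaliplatin against untreated it moved PPM1A from 0.02 to -0.5, PPM1B from 0.33 to 0.11 and PPM1L from 0.87 to 0.25, the members with the lowest GC content (36.1%, 40.6% and 39.8%). PPM1H moved from 2.3 to 1.96, PPM1G from -0.61 to -0.71 and PPM1M from 0.6 to 0.75. PPM1K (0.35 to -0.1), PPM1F (0.03 to -0.14) and PPM1J (-0.09 to 0.09) changed sign, none of them called. PPM1B was then not called, and PPM1M was. In sorafenib against untreated, PPM1H moved from -0.46 to -0.67, PPM1G from -0.55 to -0.61 and PPM1M from 0.84 to 0.91, and all 3 were called.

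**Figure D3:**
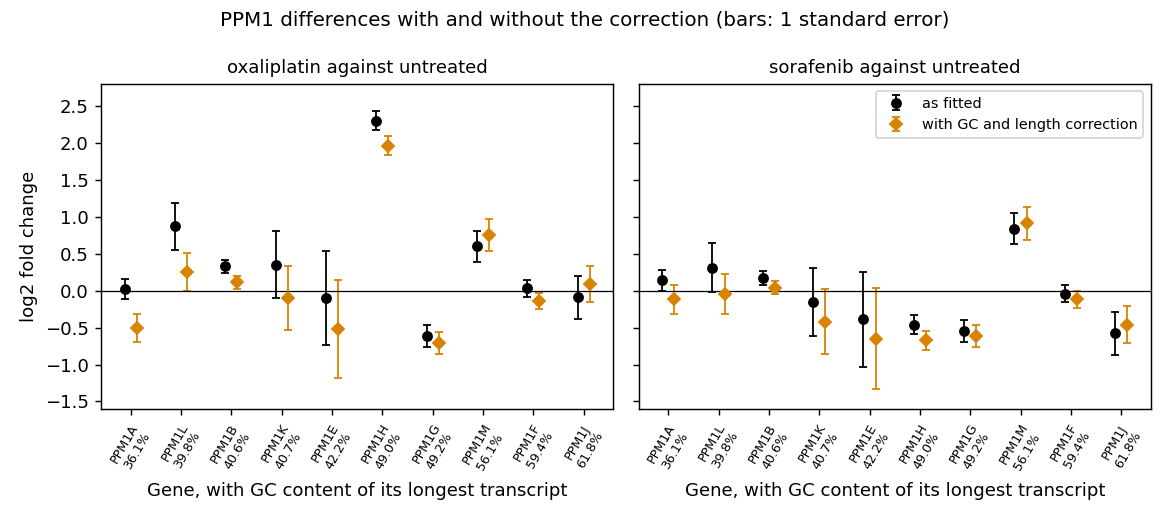
Log2 fold change of each PPM1 gene against untreated as fitted and with the GC and length correction (bars: 1 standard error), with genes ordered by the GC content of the longest transcript. PPM1A and PPM1L, at 36.1% and 39.8% GC, move down in oxaliplatin to -0.5 and 0.25, and PPM1H stays high at 1.96.

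Genes around the members were counted from 6 lists of substrates and partners, of which 67 of 73 genes were tested. In oxaliplatin 18 of 67 changed, 12 higher and 6 lower, where 16.2% and 15.5% of all genes were called higher and lower. Of the 10 tested genes around PPM1H, 3 rose and none fell, with a list median of 0.01. LRRK2, the kinase whose Rab substrates PPM1H dephosphorylates, rose from 18.5 ± 4.74 to 45.3 ± 5.09 CPM (log2 fold change 1.29 ± 0.21, edgeR adjusted p = 0.00323) and stood at 28.5 ± 6.26 CPM in sorafenib. LRRK2 was called under all 17 alternatives, and with the GC and length correction it was at 0.74. RAB29, a Rab protein that recruits LRRK2 to membranes, rose by 0.47 ± 0.14 (adjusted p = 0.027), and LRRK1, a related kinase, by 0.73 ± 0.22 (adjusted p = 0.0335). The RAB29 call ended without untreated library 2 or 3 (adjusted p = 0.0846 and 0.0957) or oxaliplatin library 1 or 2 (0.0607 and 0.0961), and p ranged from 0.0153 to 0.0961 over the alternatives. The LRRK1 call ended without untreated library 2 or 3 (0.0937 and 0.075) or oxaliplatin library 1, 2 or 3 (0.0803, 0.077 and 0.0605), and with the GC and length correction LRRK1 was at 0.17 (0.466), the highest of its range from 0.0132. The Rab substrates RAB8A and RAB10, named after their values were seen, were not called, at -0.88 ± 0.44 and 0.16 ± 0.09.

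**Figure D4:**
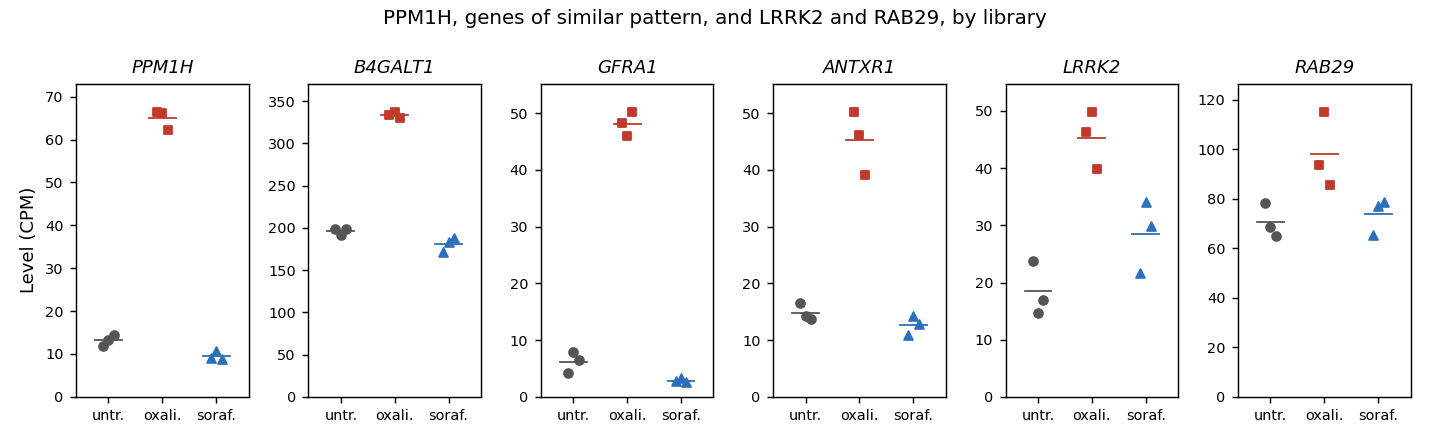
Level in CPM in the 9 libraries, by group, of PPM1H, its 3 most similar genes (B4GALT1, GFRA1 and ANTXR1), LRRK2 and RAB29 (points: libraries, horizontal bars: group means, 1 panel a gene with its own scale). GFRA1 lies at 46 to 50.2 CPM in oxaliplatin and at 2.57 to 7.96 CPM in the other libraries, and LRRK2 lies at 39.8 to 49.8 CPM in oxaliplatin.

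Among 19 tested stress kinases and other reported substrates of PPM1A, PPM1B and PPM1L, 5 rose and 2 fell in oxaliplatin. Of all genes tested, 16.2% were called higher and 15.5% lower, so nothing is read from these counts. The list median was 0.33, and that of all genes tested was 0.016. TAB3, an adaptor of the kinase TAK1, rose by 0.89 ± 0.13 (edgeR adjusted p = 0.00239), from 20.2 ± 1.25 to 37.3 ± 3.89 CPM, and was at 0.38 with the GC and length correction, still called. MAP3K5, the oxidative stress kinase ASK1, rose by 0.97 ± 0.19 (adjusted p = 0.00565), from 47.4 ± 12.5 to 92.8 ± 13.3 CPM. MAP2K3, a kinase that activates p38, fell by 0.79 on the log2 scale (SE 0.12, adjusted p = 0.00256), from 53.7 ± 6.35 to 31 ± 1.66 CPM. MAP3K7, MAP2K7 and SMAD3 also rose and CDK2 fell, named after their values were seen. In sorafenib 2 of the 67 genes were called, where 4.8% of all genes tested were. These were MAP3K5 (1.03 ± 0.19, adjusted p = 0.0199) and SMAD3 (0.54 ± 0.12, adjusted p = 0.0397). None was called there without untreated library 2 or 3 or sorafenib library 2 or 3, 4 were called without untreated library 1 and 7 without sorafenib library 1.

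Of 8 other genes with the same protein fold, 1 rose and 1 fell in oxaliplatin, where 31.7% of all genes were called. PHLPP1, which acts on AKT, rose by 0.71 ± 0.15 (edgeR adjusted p = 0.00762), from 13.3 ± 1.32 to 21.8 ± 1.9 CPM. With the GC and length correction PHLPP1 was at 0.45, still called. ILKAP, which acts on the integrin-linked kinase pathway, fell by 0.59 on the log2 scale (SE 0.13, adjusted p = 0.00874), from 42.7 ± 4.82 to 28.4 ± 2.54 CPM. The list around PPM1E and PPM1F held PAK, PIX, calmodulin-dependent and AMP-activated kinase genes. Of its 8 tested genes, 2 rose and 1 fell, where 16.2% of all genes were called higher and 15.5% lower. CAMK1, a calmodulin-dependent kinase, fell by 0.83 (SE 0.15, adjusted p = 0.00411), from 15.7 ± 0.489 to 8.79 ± 0.337 CPM, and was at -0.55 with the correction, still called. The catalytic subunits of the AMP-activated kinase, PRKAA1 and PRKAA2, rose by 0.5 ± 0.13 and 0.48 ± 0.14 (adjusted p = 0.0193 and 0.0259). Both calls ended without untreated library 2 or 3 or oxaliplatin library 1 or 2 (0.0684, 0.0574, 0.0684 and 0.0698 for PRKAA1, 0.0898, 0.0538, 0.0882 and 0.0816 for PRKAA2). With the GC and length correction they were at 0.13 and -0.11, and over the alternatives adjusted p ranged from 0.00798 to 0.229 and from 0.0138 to 0.294.

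None of the 7 P-TEFb and 7SK genes around PPM1G was called in oxaliplatin or in sorafenib with edgeR, where 31.7% and 4.8% of all genes were. MEPCE, which caps 7SK RNA, was higher in oxaliplatin than in sorafenib by 0.57 ± 0.13 (adjusted p = 0.026). That call ended without oxaliplatin library 1 or 3 (0.0882 and 0.0569) or sorafenib library 2 or 3 (0.0837 and 0.0842), within a range of 0.00401 to 0.0882. Of 15 genes of branched-chain amino acid breakdown around PPM1K, 1 rose and 2 fell in oxaliplatin, where 16.2% of all genes were called higher and 15.5% lower. BCAT2, the mitochondrial aminotransferase of the first step, fell by 0.77 on the log2 scale (SE 0.12, edgeR adjusted p = 0.00288), from 71.9 ± 8.6 to 42.3 ± 1.56 CPM. BCAT1, its cytosolic counterpart, fell by 0.37 (SE 0.12, adjusted p = 0.0383), and DBT, a subunit of the dehydrogenase, rose by 0.48 ± 0.16 (adjusted p = 0.0415). With the GC and length correction BCAT1 was at -0.97 and DBT at -0.15. The BCAT1 call ended with scaling by library size alone (adjusted p = 0.111), in the fit of 2 groups (0.0643), and without untreated library 2 or 3 (0.121 and 0.129), any 1 oxaliplatin library (0.117, 0.0531 and 0.0889) or sorafenib library 2 or 3 (0.0553 and 0.0555), in a range of 0.0023 to 0.129. The DBT call ended with no filter on low counts (0.0515), with that correction (0.234), and without any 1 untreated library (0.0721, 0.131 and 0.0698), oxaliplatin library 1 or 2 (0.123 and 0.111) or sorafenib library 3 (0.058), in a range of 0.0151 to 0.234.

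Between the drugs, 5 of the 67 genes were called, where 10.3% of all genes tested were, so the listed genes did not exceed the background. PHLPP1 (0.73 ± 0.15), MAP2K6 (0.85 ± 0.23) and MEPCE were higher in oxaliplatin, and MAP2K3 (-0.55 ± 0.12) and BCAT2 (-0.48 ± 0.12) were lower. Of these, MAP2K6, a second kinase that activates p38, was named after its value was seen. The number called was 0 without oxaliplatin library 1 or sorafenib library 3, 1 without oxaliplatin library 2 or sorafenib library 2, and 2 without sorafenib library 1.

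The genes whose log2 CPM followed PPM1H most closely over the 9 libraries, among 10129 protein-coding genes averaging 5 CPM or more, were B4GALT1 (Pearson r = 0.992), GFRA1 (0.99) and ANTXR1 (0.984). The oxaliplatin libraries stand apart from the rest for all of them, and r is given as a description. B4GALT1, a galactosyltransferase of the Golgi, was at 191 to 199 CPM in untreated, 330 to 337 CPM in oxaliplatin and 172 to 188 CPM in sorafenib libraries. GFRA1, a receptor subunit for the growth factor GDNF, was at 4.22, 7.96 and 6.42 CPM in untreated, 48.2, 46 and 50.2 CPM in oxaliplatin and 2.77, 3.24 and 2.57 CPM in sorafenib libraries. ANTXR1, a cell-surface receptor that binds collagen, was at 13.8 to 16.5, 39.2 to 50.2 and 10.9 to 14.2 CPM. For PPM1M the closest genes were TMEM68 (0.957), RGPD8 (0.943) and SLC35B2 (0.934). TMEM68 was at 28 to 30.1 CPM in untreated, 32.3 to 39.2 CPM in oxaliplatin and 38.8 to 41.2 CPM in sorafenib libraries. RGPD8 belongs to a family of near-identical copies, and its counts are uncertain.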

How the data were processed

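Counts are whole numbers of reads per gene for 60683 genes in 9 libraries, deposited by the authors as raw counts and made with featureCounts on GRCh38, per the submitters' processing notes, which list DESeq2 too. Per the labels' protocols, mRNA was fragmented before sequencing on an Illumina machine. The aligner, annotation release and strand setting are not given in the sources used here.

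The analysis used R 4.3.3 and edgeR 4.0.16: filterByExpr left 16159 genes, TMM factors lay between 0.944 and 1.05, and a robust quasi-likelihood fit had 1 coefficient per group (biological coefficient of variation 0.224). P-values were 2-sided and Benjamini-Hochberg adjusted over every gene tested, with calls under 0.05. The standard error was derived from the F statistic. CPM used TMM factors, and lengths, overlaps and loci come from GENCODE. The procedure was also run on counts simulated from its own fitted means and spread, which cannot test whether that model holds for these data.

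All 10 members are named. Each list gives up to 3 called genes with the smallest adjusted p and a mean of at least 1 CPM, and the most alike genes are the 3 with the highest correlation to the member with the largest change in each drug comparison, among members averaging 5 CPM or more. The members and lists were chosen with earlier results of these data known. Alternatives were DESeq2 1.42.0, RLE factors, library size only, no filter, a mean of at least 1 CPM, fits of 2 groups, a block for the replicate number and leaving out each library. A loess correction (span 0.5) for GC content and length was added after the data were seen, with values for 99% of genes tested.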

Additional observations from a re-analysis of the deposited data

How the results depend on the processing

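Both oxaliplatin differences of PPM1H were called under all 17 alternatives. Over all alternatives, 484 log2 fold changes of members moved by less than the gene's own SD of log2 CPM within groups and 14 by more. The 484 include fits that left out a library of a group outside the comparison, where the value could hardly move. The tally is therefore no measure of stability. Scaling by library size alone moved the median log2 fold change of all genes in oxaliplatin against untreated from 0.016 to 0.131 and the calls from 2619 higher and 2504 lower to 3395 and 1794. The GC and length correction gave 1727 and 3173, and put PRKAA2 at -0.11 and DBT at -0.15. Members called in oxaliplatin against untreated were 5 with library size alone. In sorafenib against untreated they were 1 with library size alone or a mean of at least 1 CPM (787 and 873 genes called). Members called there were 3 with DESeq2 or the GC correction. Genes called in sorafenib were 775, and 1804 with DESeq2, 311 with 2 groups only and 1166 with the GC correction. Listed genes called there were 7, 1 and 4, and 9 between the drugs with the GC correction.

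Deviations from the group mean correlated at r = -0.111 to 0.0359 between same-numbered libraries of different groups (9 pairs). Between differently numbered ones r was -0.104 to 0.162 (18 pairs). No shift shared by number was seen. With 3 libraries a group, this cannot exclude that a number marks a shared culture or day. With the replicate block, PPM1G and PPM1H were the 2 members called in oxaliplatin, PPM1B was not, and the calls of RAB29, LRRK1, PRKAA2, BCAT1, DBT and MEPCE were lost. With it, 184 genes were called in sorafenib and 809 between the drugs, and listed genes called were 11 in oxaliplatin, 1 in sorafenib and 0 between the drugs.

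Leaving out 1 library gave 2913 to 5403 genes called in oxaliplatin (2945 without untreated 2, 3293 without untreated 3, 2913 and 3311 without oxaliplatin 1 and 2), 113 to 1743 in sorafenib and 572 to 1949 between the drugs. In sorafenib they were 1641, 149 and 153 without untreated 1, 2 and 3, 386 and 446 without oxaliplatin 1 and 2, and 1743, 139 and 113 without sorafenib 1, 2 and 3. Between the drugs they were 572 and 723 without oxaliplatin 1 and 2, and 825, 956 and 787 without sorafenib 1, 2 and 3. Members called ranged from 1 to 5, from 0 to 2 and from 1 to 1, and listed genes from 9 to 22 (10 and 9 without untreated 2 and 3, 10 and 11 without oxaliplatin 1 and 2), from 0 to 7 and from 0 to 6. Counts of 3 to 37 a library limit PPM1E and PPM1K.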
